A study of Mus musculus with 12 samples.

Results

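The cells described here are utricular mesenchymal cells that held little or no Col8a1 and Lum mRNA, named Col8a1/Lum-low mesenchymal cells. They numbered 80 of the 246 mesenchymal cells, of 375 kept cells of the non-epithelial dissection and of 1155 cells in the deposited table. A kept cell had at least 120000 reads, at least 950 genes above 0 and at most 10% mitochondrial reads, which left 1007 cells in all. A mesenchymal cell had at least 3 of the 5 genes Otor, Dcn, Col1a2, Coch and Car3 at 100 CPM (counts per 1000000 reads of that cell) or more, and Rgs5, a pericyte gene, below 1000 CPM. Of these, the Col8a1/Lum-low cells were those with Col8a1 below 20 CPM and Lum below 100 CPM. The other 166 mesenchymal cells comprised 112 cells with Lum at 100 CPM or more (Lum-high) and 54 cells with Lum below that limit and Col8a1 at 20 CPM or more (Col8a1-positive).

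Single cells were taken from the utricles of wild-type FVB and Pou4f3 DTR/+ mice at postnatal days 4 and 6 (P4 and P6), and the diphtheria toxin receptor of the second line, which is placed at a hair cell gene, was not activated. Mice of both sexes were used, the sensory epithelium was separated from the mesenchyme with thermolysin, and living single cells were sorted into plates and sequenced by Smart-seq2, which reads full-length cDNA without molecular identifiers. No genotype, sex, animal, pool or plate was given per cell, so these could not be compared, and each age counts as 1 sample. All P4 cells of the non-epithelial dissection came from sequencing batch 5 and all P6 cells from batches 2, 4 and 6, so age and batch cannot be told apart. The Col8a1/Lum-low cells comprised 55 P4 cells and 25 P6 cells, the latter from batches 2 (5 cells), 4 (5 cells) and 6 (15 cells).

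The utricle senses linear acceleration and gravity through hair cells in a sensory epithelium, which rests on a connective tissue of mesenchymal cells, vessels and nerve. Inner ear mesenchyme forms fibrocytes, which hold the extracellular matrix of the ear, recycle potassium and exchange signals with the epithelium. Lumican (Lum) and decorin (Dcn) are small leucine-rich proteoglycans that bind collagen fibrils, and type VIII collagen (Col8a1) is a short-chain collagen of basement membranes and subendothelial matrix. In the GRCm38 annotation Lum lies at chr10:97565128-97572703, next to Dcn at chr10:97479609-97518143, and Col8a1 lies at chr16:57624258-57754737.

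Because Col8a1, Lum and the 5 mesenchymal genes chose the cells, their values describe the rule and support nothing. Of the 80 cells, 69 had no Col8a1 read and 78 no Lum read. The highest Col8a1 level inside the limit was 19.3 CPM and the lowest outside it 28.7 CPM, against 48.5 and 129 CPM for Lum. All 5 mesenchymal genes reached 100 CPM in 54 of the cells, 4 of them in 18 cells and 3 of them in 8 cells. The plot of both genes in all 246 cells shows that few cells lay near either limit.

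**Figure D1:**
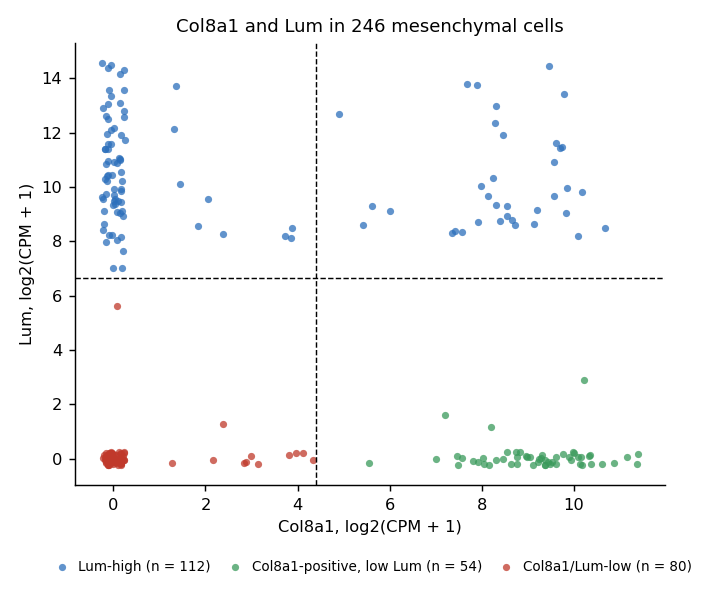
Lum against Col8a1 in the 246 mesenchymal cells, both as log2(CPM + 1), with 1 point per cell, a small random offset on values of 0, and the 2 limits of the rule as dashed lines. The 80 Col8a1/Lum-low cells (red) crowd at 0 for both genes, the 54 Col8a1-positive cells (green) lie to the right and the 112 Lum-high cells (blue) above.

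The mesenchymal identity of the cells was set by the rule, and marker genes of the inner ear mesenchyme describe it. Otor (otoraplin, a secreted protein of inner ear fibrocytes) was detected in all 80 cells, from 1495 to 45584 CPM with a median of 14879. Coch (cochlin, the main secreted protein of fibrocyte matrix) was detected in 54 of 55 P4 and 20 of 25 P6 cells and reached 21142 CPM. Both genes belong to the rule, so this is a description. Of 7 mesenchymal markers, 3 were above the other mesenchymal cells in the pooled means (median log2 -0.05). Wif1 was counted as higher and Dcn, a gene of the rule, as lower. Ptgds, which is outside the rule, was detected in 38.2% of the P4 cells. The genes proposed as markers of these cells, Otor, Slit2, Col2a1 and Susd5, did not set them apart from the other mesenchymal cells in every batch except for Col2a1. Mean Slit2 (a secreted guidance cue for axons and migrating cells) was 580.0 CPM against 312 in batch 5 but 6.96 against 80.6 in batch 2. Susd5 (a sushi domain protein that binds hyaluronan) was detected in 22 of 55 P4 cells and 3 of 25 P6 cells, and in none of the 5 cells of batch 4. The cells are therefore named by the rule.

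Markers of other cell types were low or absent. The hair cell markers (Xirp2, Kcna10, Atp2b2, Myo7a, Pou4f3, Otof) and the haemoglobins were at 0 in all 80 cells, and no cell reached 100 CPM summed over the endothelial, macrophage or melanocyte markers. Pericyte markers summed to a median of 0 CPM (highest 790), with Aspn and Kcnj8 at 0 and Rgs5 limited by the rule. Of the Schwann cell markers, Mag and Slc36a2 were at 0, and the sum, with a median of 293 CPM, came almost wholly from Pmp22 (mean 401 CPM, against 441 in the other mesenchymal cells). Of the glial markers, Cdh19 was at 0, yet 21 of 80 cells (26.3%) reached 100 CPM over the list, against 11 of 112 Lum-high (9.82%) and 1 of 54 Col8a1-positive cells (1.85%). That sum was almost wholly Ednrb (the endothelin B receptor), which had a mean of 101 CPM against 22.7 in the other mesenchymal cells. Ednrb was not above the other cells in every batch. Its pooled log2 difference of 2.10 was 1.21 within P4, and within P6 it was detected in too few cells to compare. Epithelial markers summed to 100 CPM in 12 cells (15%), against 16 Lum-high (14.3%) and 13 Col8a1-positive cells (24.1%). In the epithelial dissection, 1 of 632 kept cells met the whole rule.

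Depth and sex-linked genes differed somewhat between the groups. The Col8a1/Lum-low cells had a median of 578224 reads (129096 to 1159951) and 2674.5 genes, against 657893 reads (148799 to 1706056) and 2875.5 genes in the other mesenchymal cells. The 5 cells of batch 4 were the shallowest, with a median of 268190 reads and 1680 genes. Counting error at this depth leaves weakly expressed genes undetected in part of the cells, and 5 cells give only a rough batch mean. Xist at 10 CPM or more, with the Y-linked genes Ddx3y, Eif2s3y, Kdm5d and Uty below 10 CPM in sum, was found in 59 of 80 Col8a1/Lum-low cells (73.8%) and in 76 of 166 others (45.8%). Within batch 5 the counts were 41 of 55 (74.5%) and 26 of 51 (51.0%). They were 1 of 5 and 4 of 41 in batch 2, 4 of 5 and 11 of 19 in batch 4, and 13 of 15 (86.7%) and 35 of 55 (63.6%) in batch 6. Y-linked reads at 10 CPM or more in sum, without Xist at that level, were found in 3 of 5 Col8a1/Lum-low and 27 of 41 other cells of batch 2 and in 4 of 55 and 9 of 51 cells of batch 5, but in no mesenchymal cell of batches 4 and 6. Sex-linked reads thus differed between batches, also between those of P6. The share with Xist was higher in the Col8a1/Lum-low cells also in batches 4 and 6, where no mesenchymal cell reached the Y-linked limit. It therefore cannot be read as a share of female cells, and the part of sex in the differences given here was not tested.

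Col8a1/Lum-low cells made up a larger share of the mesenchymal cells at P4 than in each P6 batch. They were 55 of 106 P4 mesenchymal cells (51.9%, exact Clopper-Pearson 95% interval 42.0% to 61.7%) and 25 of 140 P6 cells (17.9%, 11.9% to 25.2%). The P6 batches gave 10.9% (3.62% to 23.6%) in batch 2, 20.8% (7.13% to 42.2%) in batch 4 and 21.4% (12.5% to 32.9%) in batch 6. The intervals cover counting error of cells only, not the variation between pools of mice, and the 3 P6 intervals overlap one another. Col8a1-positive cells had the opposite distribution, with 8 of 106 cells at P4 (7.55%) and 46 of 140 at P6 (32.9%), and Lum-high cells made up 40.6% and 49.3%. Since a cell was placed by its level of 2 genes, these shares also reflect the levels of Col8a1 and Lum at each age. The plot of shares by batch shows the P4 batch above the P6 batches.

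**Figure D2:**
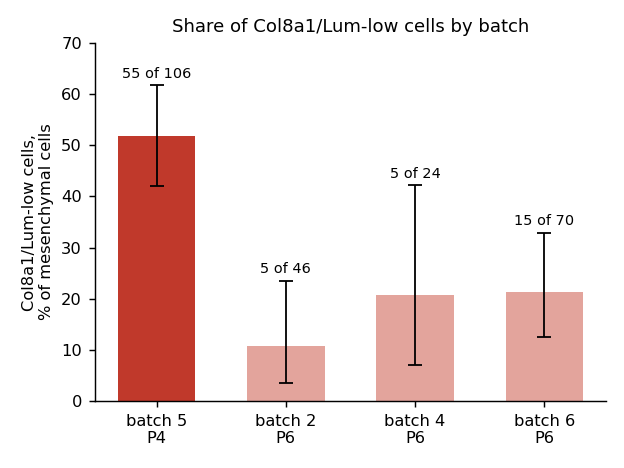
Share of mesenchymal cells that were Col8a1/Lum-low in each sequencing batch, in percent, with the counts above each bar and exact 95% Clopper-Pearson intervals. The P4 batch (51.9%) stands above the 3 P6 batches (10.9% to 21.4%), and the interval of batch 4 reaches the lower end of that of batch 5.

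Gene levels were compared as the log2 ratio of mean CPM, with 1 CPM added to both means, between the 80 Col8a1/Lum-low cells and the 166 other mesenchymal cells. No p-value was computed, because cells of 1 pool are not replicates and the cells were chosen by their own expression. A gene was counted as differing when its means differed at least 2-fold, it was detected (above 0) in at least 25% of the cells of either group, and the difference had the same direction in all 4 batches. Of 4031 genes tested, 44 (1.09%) were counted as higher and 82 (2.03%) as lower, and the median log2 difference over all tested genes was 0.05. By direction alone, 215 genes (5.33%) were above and 400 (9.92%) below the other cells in every batch. Leaving out any of the 4 batches, which relaxes the condition on direction, gave 76 to 154 genes as higher and 107 to 322 as lower. With P4 cells alone, 220 of 4407 genes (4.99%) were at least 2-fold higher and 288 (6.54%) lower, and with P6 cells alone and the same direction in 3 batches, 154 of 3989 (3.86%) were higher and 322 (8.07%) lower. In simulated cells drawn without any difference between the groups, a similar share of tested genes met these criteria. The simulated spread of each gene was that over all mesenchymal cells, so it holds any real differences between groups, ages and batches. The counts by themselves do not set the genes apart from that spread, and the values are given as a description. Because 68.8% of the Col8a1/Lum-low cells but only 51 of the 166 others were from P4, a pooled difference can also reflect the mix of ages, and differences within batches or within P4 and P6 alone are given for the genes named by rule.

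A few genes of Wnt signalling had higher levels. Wnt ligands act through Frizzled receptors and beta-catenin, and many genes of the pathway encode inhibitors that restrain it. Wif1, a secreted inhibitor that binds Wnt ligands, had a mean of 1734 CPM in the Col8a1/Lum-low cells and 480.3 in the others (log2 1.85). Over the 80 cells it ranged from 0 to 5535 CPM with a median of 1568. In batch 5 the means were 1950 and 869.9 CPM, in batch 2 768 and 130.1, in batch 4 2697 and 349.7, and in batch 6 945 and 425. The Col8a1/Lum-low mean was thus the higher one in each batch. Wif1 was detected in 53 of 55 P4 cells (96.4%) against 31 of 51 others (60.8%), and in 14 of 25 P6 cells (56%) against 36 of 115 (31.3%). After every cell was thinned to 200000 reads these shares were 96.2%, 60%, 52.2% and 31.2%. Wif1 lies at chr10:121033960-121100650.

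Nkd1, a cytoplasmic antagonist that binds Dishevelled, averaged 384 CPM against 103 (log2 1.89). Its batch differences were 0.95 (batch 5), 2.88 (batch 2), 4.58 (batch 4) and 0.98 (batch 6) on the log2 scale, and the cells of batch 4 reached a mean of 1329 CPM. Axin2, a scaffold of the complex that degrades beta-catenin and a common target of the pathway, averaged 149 against 29.9 CPM (log2 2.28). It was not counted, because in batch 2 its mean was 12.1 CPM against 13.5 in the others. Dkk3, a secreted protein of the Dickkopf family, averaged 533 against 164 CPM and was above the others in 3 batches but not in batch 4 (96.4 against 356). Znrf3, a ubiquitin ligase that removes Frizzled from the membrane, was above in all 4 batches with a smaller difference (log2 0.72). Frzb, a secreted Frizzled-related protein, went the other way and was counted as lower (56.8 against 198 CPM, log2 -1.79). The ligand Wnt5a was at 1199.8 and 1091 CPM. Of 52 genes of the Wnt list, 15 passed the detection limit, 2 were counted as higher and 1 as lower (over all tested genes, 1.09% and 2.03% were), with a median log2 difference of 0.21 against 0.05 for all genes.

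**Figure D3:**
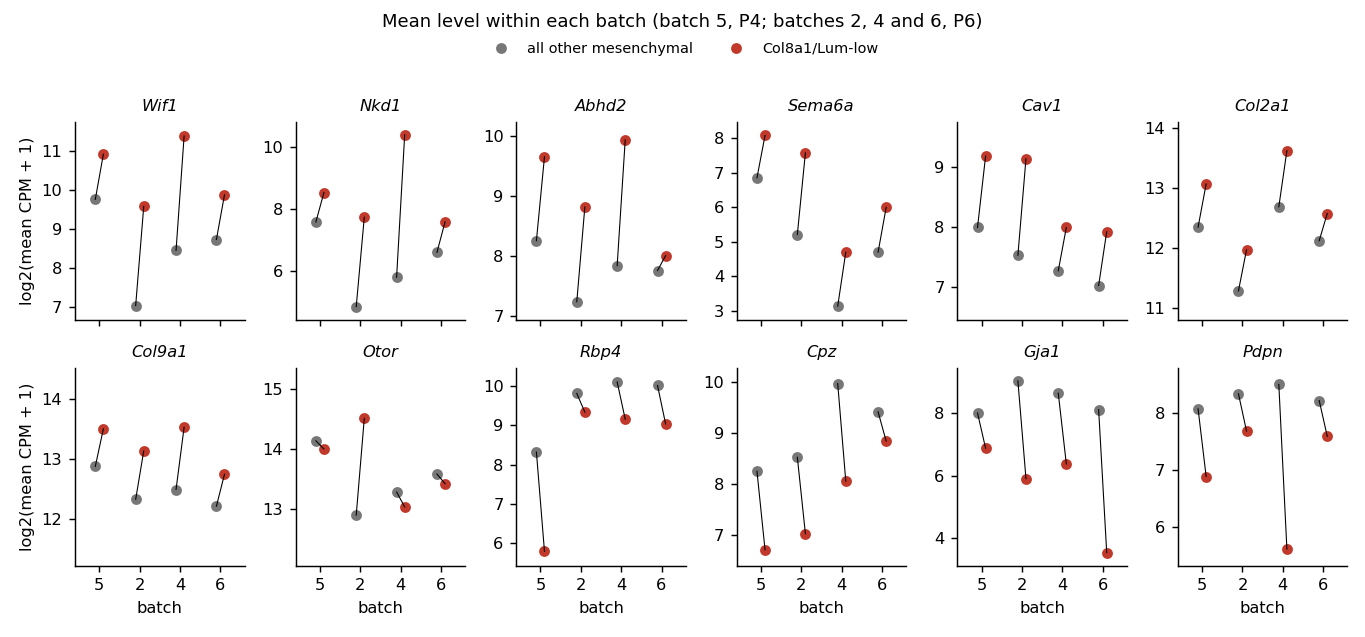
Mean level of 12 genes in each batch, as log2(mean CPM + 1), in Col8a1/Lum-low (red) and all other mesenchymal cells (grey), with batch 5 from P4 and batches 2, 4 and 6 from P6, and with a separate axis range in each panel that does not start at 0. Wif1, Nkd1, Abhd2, Sema6a, Cav1, Col2a1 and Col9a1 were above and Rbp4, Cpz, Gja1 and Pdpn below the other cells in each batch, while Otor was above in batch 2 only.

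Collagen types II and IX and the Col11a2 chain of type XI, all of the cartilage type, were above the other cells in each batch, by less than 2-fold in the pooled means. Type II collagen forms fibrils that carry types IX and XI, and the same set occurs in cartilage, in the tectorial membrane and in the matrix of inner ear fibrocytes. Col2a1, at chr15:97975602-98004695, averaged 8071 CPM against 4442 (log2 0.86). Its level in the 80 cells ran from 0 to 34749 CPM with a median of 7168. In batch 5 its means were 8570.1 and 5201 CPM, in batch 2 4006 and 2492, in batch 4 12586 and 6587, and in batch 6 6093 and 4451. It was detected in nearly every mesenchymal cell (98.2% and 100% at P4), so the difference was one of level. Col9a1 averaged 10543 against 5801 CPM, with log2 differences of 0.63, 0.81, 1.04 and 0.53 in batches 5, 2, 4 and 6. The same direction in every batch was found for Col9a2 (log2 0.59), Col9a3 (0.57) and Col11a2 (0.94), the other chains of types IX and XI, while Col11a1 had pooled means of 189 and 194 CPM and differed in direction between batches. Exon bases of Col9a3 are shared with Tcfl5, so part of its reads may belong to that gene.

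Over the cartilage-type matrix list, 10 of 22 genes passed the detection limit, none was counted as higher and 1 as lower. Over all tested genes, 1.09% and 2.03% were. The median log2 difference of the list was 0.73 against 0.05 for all genes. The gene counted as lower was Ucma, a cartilage matrix protein rich in gamma-carboxyglutamate (107 against 334 CPM, with batch differences from -1.41 to -0.06). Cnmd (chondromodulin, an inhibitor of vessel growth in cartilage) was at 104 against 442 CPM. Both were counted as higher at P6 than at P4, with values given with the ages. Within P4 alone, 8 of 8 tested genes of the list were above the other cells (median 0.53, against -0.04 for all tested genes). Fewer genes passed the detection limit there, and Ucma was not among the 8. Within P6 alone 7 of 10 were (median 0.50, against 0.01). In every P6 batch, 5 of these 10 were above and 1 below, against 10.9% and 18.0% of all tested genes. Sox8 and Sox9 are transcription factors of the same family that act in cartilage and in the otic region. Sox8 was counted as higher (391 against 162 CPM, log2 1.27), with batch differences from 0.36 to 2.76, although some of its exon bases are shared with a predicted gene. Sox9 was below the other cells in all 4 batches by less than 2-fold (251 against 349 CPM).

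Collagens of loose connective tissue had no common direction against all other mesenchymal cells. Col1a2, a gene of the rule, averaged 4222 and 4357 CPM, and Col3a1 1827 and 2068 CPM. Of 9 tested genes of the interstitial collagen list none was counted either way, and the median was -0.02. The median was -0.24 against the Lum-high cells, with 3 of 9 genes above 0, and 0.60 against the Col8a1-positive cells, with 7 of 9 above 0, whereas the cartilage-type list had medians of 0.56 and 0.78. Col14a1, which coats collagen fibrils, was above the others in all 4 batches (411 against 224 CPM). Fbln1 (fibulin 1, a glycoprotein of basement membranes and elastic fibres) was counted as higher (216 against 76.2 CPM, log2 1.49) and Lox (lysyl oxidase, which crosslinks collagen and elastin) as lower (67.6 against 163 CPM), the only 2 of 15 tested genes of the glycoprotein and elastic fibre list that were counted. Coch, a gene of the rule, averaged 7186 against 4242 CPM and was above in batches 5, 4 and 6 but not in batch 2. Ptn (pleiotrophin, a heparin-binding growth factor) was detected in all 80 cells at 4333 against 3183 CPM and was above in all 4 batches by less than 2-fold.

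Several membrane genes were among the named genes with higher levels. Sema6a, a transmembrane semaphorin that guides axons, averaged 210.1 against 53.2 CPM (log2 1.96). Its log2 differences ran from 1.23 to 2.37 over the 4 batches, and the mean in batch 5 was 269 CPM against 114. Gpr37, an orphan G protein-coupled receptor also found in glia, averaged 696 against 258 CPM (log2 1.43; 1.05 and 1.38 within P4 and P6) and was detected in 80% of P4 and 52% of P6 cells, against 56.9% and 33.0% of the others. Cav1, the coat protein of caveolae, averaged 494 against 183 CPM (log2 1.42; 1.19 and 1.01 within P4 and P6), yet at P6 it was detected in fewer Col8a1/Lum-low cells (6 of 25, 24%) than others (35 of 115, 30.4%). Abhd2, a serine hydrolase of lipids, was detected in all 80 cells at 4.72 to 4578 CPM and averaged 691 against 228 CPM (log2 1.59; 1.40 and 1.17 within P4 and P6). In batch 6 its difference was small (256 against 215 CPM).

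The other named genes with higher levels were Cdkn1a (p21, an inhibitor of the cell cycle; log2 1.21), Enah (a regulator of actin filaments; 1.37), Lypd6 (a membrane-anchored protein of the Ly6 family; 1.11), Abcg1 (a cholesterol exporter; 1.10), Igsf11 (an adhesion protein of the immunoglobulin family; 1.05) and Plac9b (a small secreted protein; 2.13). Within P4 and P6 alone the log2 differences were 1.09 and 0.98 for Cdkn1a, 0.83 and 1.15 for Lypd6 and 1.19 and 0.98 for Abcg1. Enah and Igsf11 differed by less than 2-fold within P4 (0.37 and 0.39) and by more within P6 (2.40 and 1.72). The pooled difference of Plac9b was larger than that within either age (1.49 and 1.15). Plac9b has a nearly identical copy, Plac9a, so its reads may be divided between the copies. Cdkn1a averaged 474 CPM against 262 in Lum-high and 85.7 in Col8a1-positive cells. Cell cycle genes were too sparse to compare, as none of 27 passed the detection limit. Plekhb1, a membrane-associated pleckstrin homology protein, was also counted as higher (307 against 66.6 CPM) but was detected in only 25 of 55 P4 and 7 of 25 P6 cells.

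**Figure D4:**
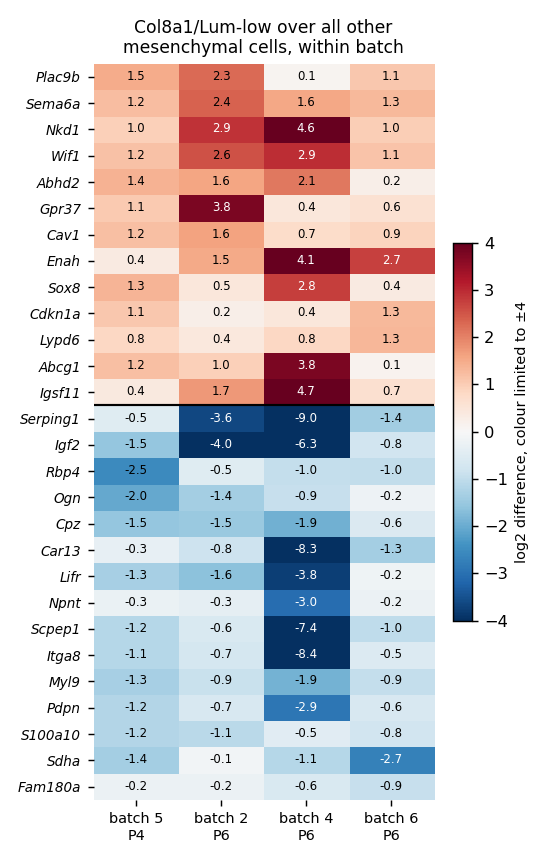
Log2 difference between Col8a1/Lum-low and all other mesenchymal cells within each batch for the 28 genes named by rule, with higher genes above and lower genes below the line and the colour limited to 4 in either direction. The signs are the same across each row because the rule required it, and the values beyond 4 in either direction stand in batch 4, which held 5 Col8a1/Lum-low cells, except for Igf2 in batch 2.

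Genes with lower levels included several that encode secreted proteins. Dcn, a gene of the rule and the neighbour of Lum, averaged 1958 CPM against 6679 (log2 -1.77). Its batch means were 1009, 5039.8, 1254 and 4644 CPM in batches 5, 2, 4 and 6, against 3381, 10187, 5957 and 7372 in the others. It was still detected in 44 of 55 P4 and 22 of 25 P6 cells, with a median of 717 CPM. Ogn (osteoglycin, of the same proteoglycan family) averaged 121 against 399 CPM (log2 -1.72; -2.03 and -0.81 within P4 and P6), while Bgn (biglycan) was at 586 and 539 CPM. These were the only 3 of 13 genes of the small leucine-rich proteoglycan list that passed the detection limit, so that Ogn alone was counted as lower apart from a gene of the rule. Rbp4, the retinol carrier of the blood, averaged 212 against 791 CPM (log2 -1.90), with its largest batch difference at P4 (54.1 against 319 CPM) and differences of -0.48, -0.95 and -0.98 in batches 2, 4 and 6. Cpz, a secreted carboxypeptidase with a Frizzled-like domain that binds Wnt, averaged 181 against 523 CPM (log2 -1.52; -1.54 and -0.81 within P4 and P6) and was detected in 16.4% of P4 cells against 47.1% of the others. Both growth factors of the insulin-like family were counted as lower, Igf1 at 57.0 against 187 CPM and Igf2 at 78.0 against 299 CPM (log2 -1.54 and -1.42 within P4 and P6). Serping1, the inhibitor of complement C1, was at 62.5 against 279 CPM (log2 -2.14), with a smaller difference within P4 (-0.48) than within P6 (-2.20), and was not detected in the 5 cells of batch 4.

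Cell contact and receptor genes were also among those with lower levels. Gja1 (connexin 43, which forms gap junctions between fibrocytes) averaged 91.5 against 347 CPM (log2 -1.91). Its batch means were 117, 59.2, 82.3 and 10.7 CPM in batches 5, 2, 4 and 6, against 257, 526, 400.1 and 277, so the Col8a1/Lum-low mean was the lower in each. Another connexin, Gjb2 (connexin 26), had the opposite direction in all 4 batches by less than 2-fold (1356 against 1022 CPM). Pdpn (podoplanin, a mucin-type membrane protein) averaged 133 against 303 CPM (log2 -1.18; -1.19 and -0.93 within P4 and P6) and was detected in 54.5% of P4 and 48% of P6 cells, against 82.4% and 78.3%. Npnt (nephronectin) and Itga8 (an integrin subunit that binds it) were both counted as lower, at 153 against 387 and 122 against 305 CPM. The pooled difference of Npnt (log2 -1.33) was larger than that within either age (-0.26 and -0.66 at P4 and P6), and neither reached 2-fold, while Itga8 had -1.13 and -0.81. Lifr, the receptor subunit for leukaemia inhibitory factor, was at 121 against 336 CPM (log2 -1.34 and -1.01 within P4 and P6). Tgfbr1, the type I receptor for TGF-beta, was weakly expressed (16.2 against 56.7 CPM), with log2 differences between -1.87 and -1.47 in the 4 batches. Tgfbr2 was at 449 and 478 CPM, and of 9 tested genes of the TGF-beta list only Tgfbr1 was counted. By direction alone, 5 of the 9 were below the other cells in every batch, against 9.92% of all tested genes. The median of the list was -0.45, against 0.05 for all genes. It was -0.40 within P4 (against -0.04) and -0.53 within P6 (against 0.01).

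The remaining named genes with lower levels were Car13 (a carbonic anhydrase; log2 -1.52), Scpep1 (a serine carboxypeptidase; -1.32), Myl9 (a regulatory light chain of myosin; -1.22), S100a10 (a partner of annexin A2; -1.15), Sdha (a subunit of succinate dehydrogenase; -1.13) and Fam180a (a protein without a settled function; -1.11). Within P4 and P6 alone the log2 differences were -1.15 and -1.15 for Scpep1, -1.34 and -0.99 for Myl9, -1.17 and -0.76 for S100a10 and -1.36 and -1.36 for Sdha. Car13 differed less within P4 (-0.34) than within P6 (-1.45), and Fam180a was not 2-fold lower within either age (-0.25 and -0.69). Of 12 tested transcription factors of the periotic mesenchyme, none was counted as higher and 2 as lower (over all tested genes, 1.09% and 2.03% were). These were Eya1 (54.9 against 130.1 CPM), a cofactor needed for ear development, and Foxp1 (17.3 against 47.8 CPM). Within P4 alone none of the 12 genes of the list tested there was counted, with a lowest log2 difference of -0.60. Within P6 alone 2 were counted as lower. Pou3f4 and Tbx18, both needed for the otic fibrocytes, were at 334 and 211 CPM against 269 and 222. None of 19 tested genes of the dissociation and immediate early list was counted (median -0.16).

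The 2 groups within the other cells were compared separately. Against the 112 Lum-high cells, 54 of 4125 genes (1.31%) were counted as higher and 103 (2.5%) as lower. Against the 54 Col8a1-positive cells, 122 of 4132 genes (2.95%) were counted as higher and 120 (2.9%) as lower. Only 14.8% of the Col8a1-positive cells were from P4, against 38.4% of the Lum-high and 68.8% of the Col8a1/Lum-low cells. The values here are pooled, so their sizes can also reflect the mix of ages. Wif1 was at 531 CPM in Lum-high and 376 in Col8a1-positive cells, so the Col8a1/Lum-low mean of 1734 stood above both, and so did Nkd1, Abhd2, Cav1, Sema6a and Abcg1, each counted as higher against either group. Sema6a had the larger difference against the Col8a1-positive cells, which averaged 15.6 CPM, than against the Lum-high cells, which averaged 71.3. Cdkn1a was counted as higher against the Col8a1-positive cells alone (log2 2.45, against 0.85 for Lum-high). Coch was counted as higher against the Lum-high cells (log2 1.21), and was level with the Col8a1-positive cells (7186 and 6605 CPM). Rbp4, Cpz, Pdpn, Gja1, Lifr, Car13 and Scpep1 were counted as lower against both groups. Igf2 separated the groups otherwise, at 405 CPM in Lum-high, 79.9 in Col8a1-positive and 78.0 in Col8a1/Lum-low cells. Dcn had its highest mean in Lum-high cells (8619 CPM), with 2654 in Col8a1-positive cells.

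P4 and P6 cells were then compared within the Col8a1/Lum-low group. A gene was counted when its means differed at least 2-fold, reads were found in 25% or more of cells at the age with the higher mean, and the P4 mean lay beyond the mean of every P6 batch. Of 4029 genes, 541 (13.4%) were counted as higher at P4 and 188 (4.67%) as higher at P6. The same criterion in the other mesenchymal cells counted 302 of 4387 genes (6.88%) and 162 (3.69%), and the difference between the 2 groups of cells was not tested. Simulated cells without a difference between the ages met the criterion in a similar share of tested genes, so these counts too are a description. Leaving out any of the P6 batches gave 618 to 1051 genes as higher at P4 and 332 to 489 as higher at P6. The 25 P6 cells are few, and a gene expressed in up to 12% of P6 cells could be missed in all of them.

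Among the 8 genes with the largest excess at P6 were secreted and matrix genes. Ptgds (prostaglandin D synthase, a secreted enzyme and carrier of the ear and meninges) had a mean of 711 CPM at P4 and of 9713, 33885 and 18925 CPM in the P6 batches 2, 4 and 6. It was detected in 21 of 55 P4 and 16 of 25 P6 cells. The other mesenchymal cells had the same direction, with 2158 CPM at P4 and 22558 at P6. Cnmd averaged 2.64 CPM at P4, where 2 of 55 cells held it, against 776, 299 and 185 CPM in the P6 batches. Ucma averaged 10.2 CPM at P4 against 526, 488 and 194 CPM. Both cartilage genes were also higher at P6 in the other mesenchymal cells (log2 -2.71 and -3.97 for P4 over P6). Sfrp4, a secreted Frizzled-related protein, was at 13.5 against 369.7 CPM, and Slc13a4, a sulfate transporter, at 52.5 against 614 CPM. Ackr3 (a scavenging chemokine receptor) was found in 1 of 55 P4 and 9 of 25 P6 cells, with means of 0.766 and 192 CPM, whereas in the other cells it was at 84.4 and 186 CPM. The other 2 genes named by the rule, Bdh2 (a short-chain dehydrogenase) and Kalrn (an exchange factor for small GTPases), were at 3.33 against 204 and 3.66 against 115 CPM.

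The genes with the largest excess at P4 were mostly sparse. Kit, the receptor for stem cell factor, was detected in 18 of 55 P4 cells with a mean of 144 CPM and listed at 0 in all 25 P6 cells. In the other mesenchymal cells Kit was at 100.5 CPM at P4 and 85.4 at P6. Mybbp1a (a nucleolar protein) and Coq10b (a coenzyme Q binding protein of mitochondria) were likewise listed at 0 in every P6 cell, with P4 means of 101 and 72.9 CPM. Pcdhgc3 averaged 158 CPM at P4, but the genes of this protocadherin cluster share exons and its value is uncertain. Arhgef2 (an exchange factor for small GTPases), Tmem132c, Smg1 (a kinase of RNA surveillance) and Plekhg1 had P4 means between 36.5 and 105 CPM and P6 means below 5 CPM. Slit2 was also counted as higher at P4 (580.0 against 119 CPM), with 312 against 129 CPM in the other cells. Wif1 (1950 against 1259.8 CPM) and Col2a1 (8570.1 against 6974 CPM) were not counted. Rbp4 was counted as higher at P6 (54.1 against 559 CPM), as was Dcn (1009 against 4045 CPM).

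The 55 P4 cells, which came from 1 batch, were examined for variation among themselves by principal components of the 1000 most variable genes. The first component took 4.43% of the variance and followed the number of genes detected (Pearson r = 0.89 over 55 cells, which share 1 batch), so it was not used. The second took 3.33% and had r = 0.07 with log2 reads. At one end lay cells with Plekhb1, Gpr37, Cmtm5, Glrb (a subunit of the glycine receptor), Rxfp3 (a relaxin family receptor), Susd5, Trf (transferrin) and Nkd1. At the other end lay cells with Car3 (a muscle-type carbonic anhydrase), Nid2 (nidogen 2), Itga11 (a collagen-binding integrin subunit), Dcn and Ptgds. Car3 correlated with the score at r = -0.69 and Gpr37 at r = 0.59 across the 55 cells, as a description, since these genes entered the component. Car3 was at 0 in 8 of the 55 P4 cells and reached 56311 CPM in another, and Ptgds was above 0 in 21. The plots of single genes along the score show a gradient without a wide gap, and whether there are 2 kinds of cell was not tested. Car3 and Dcn are genes of the rule. Gpr37 and Car3 had a Spearman rho of -0.53 here and of -0.50 in the 51 other P4 mesenchymal cells. Plekhb1 and Dcn had -0.34 and -0.35, while Plekhb1 and Ptgds had -0.43 and -0.10. Part of the pattern was thus found in the other cells too.

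**Figure D5:**
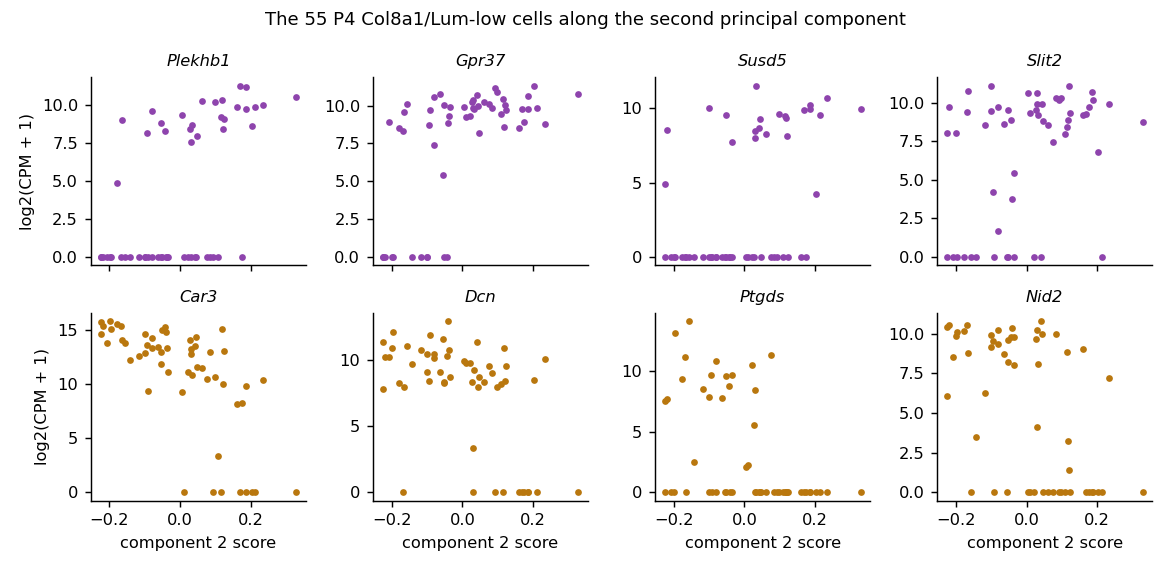
Level of 8 genes, as log2(CPM + 1), in the 55 P4 Col8a1/Lum-low cells along their second principal component, with 1 point per cell and the genes of the high end above (purple; Slit2 is shown for comparison) and of the low end below (brown). Plekhb1 and Susd5 were detected mostly at higher scores, Car3, Dcn, Ptgds and Nid2 fell to 0 mostly at higher scores, and the scores run on without a wide gap.

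The study divided its mesenchymal cells into subclusters S0, S1 and S2 and listed the genes of each, so the lists were chosen on these same cells and are not independent evidence. Scored by the mean log2(CPM + 1) of each list less its mean, and over its SD, in all mesenchymal cells, S0 was the highest in 59 of the 80 Col8a1/Lum-low cells (46 of 55 at P4 and 13 of 25 at P6). S1 was the highest in 11 and S2 in 10. Among the others, S1 was the highest in 45 of 54 Col8a1-positive cells, and S2 in 54 of 112 Lum-high cells. The study gave Col8a1 as a marker of S1, and the rule used Col8a1, so the match of groups to subclusters is partly set by the rule. Of 21 tested genes of the S0 list, 7 were counted as higher in the Col8a1/Lum-low cells and none as lower. Of all tested genes, 1.09% were counted as higher and 2.03% as lower. From the S1 list 19 of 45 tested genes were counted as lower, and from the S2 list 7 of 27, with none higher in either. These counts describe lists chosen on the same cells.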

How the data were processed

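Smart-seq2 libraries of sorted cells from P4 and P6 mouse utricles were analysed. Per the study's methods, the authors aligned the reads to GRCm38 with STAR and quantified them with RSEM, and the deposited values are expected counts per gene and cell, not normalized, of which 80.5% of those above 0 are exactly whole, with no tolerance. Of 52627 rows, 26 date-like symbols and rows of 2 repeated symbols were dropped (52601 used), with 92 spike-ins left in the totals as the selection of cells counted them. The deposited samples are blocks of cells, so all were left unassigned, and age, dissection and batch were read from the deposited cell table. An age is 1 sample here, and batch means stand in for replicates without any p-value.

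Expected counts were divided by each cell's total (CPM), and log2 differences were taken between means over cells after adding 1 CPM, without rounding. The fold on this scale understates differences of low genes. Named genes were up to 15 per direction with the largest log2 difference among genes counted as differing and detected in at least 50% of the higher group, with the genes of the rule, predicted genes and pseudogenes left out (13 and 15 genes), and 8 per direction between the ages. Genes of 38 lists could be named too. The members and lists were chosen with earlier results of these data known. Intervals are exact Clopper-Pearson at 95% and cover counting error of cells only. Doublets were removed by size at sorting per the study's methods and were not called again. The counting was tested on simulated cells, in which nearly all genes changed by a large fold were counted in the right direction. Unchanged genes also met the criteria, in a share of tested genes similar to that counted in the data. The simulation used the mean and variance of each gene over all mesenchymal cells and no effect of batch. Its spread thus includes real differences between groups, ages and batches. Alternatives were other scales, pseudocounts, no detection limit, equal weight per batch, thinning to 200000 reads (4 Col8a1/Lum-low and 4 other cells were left out), each batch left out, each age alone and other limits of the rule. The tools were matplotlib 3.10.9, pandas 2.3.3, scipy 1.17.1 and numpy 2.4.6 in Python 3.11.15, with gene positions from the GENCODE annotation of GRCm38. Not all genes of the lists are reported here.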

Additional observations from a re-analysis of the deposited data

Results flagged for a closer look

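Within-batch log2 differences to the other mesenchymal cells were compared among the 4 batches for the 28 named genes. The limit used is passed by chance in about 1 of 20 sets of 4 like values. That rate does not hold here, because the genes were chosen for a shared direction and batch 4 held few cells. In 4 of the 28 genes the value of batch 4 stood far from the other 3. The values were -8.30 for Car13, -3.03 for Npnt, -7.41 for Scpep1 and -8.42 for Itga8. Batch 4 held 5 Col8a1/Lum-low cells with a median of 268190 reads. The mean of Car13, Scpep1 and Itga8 in these 5 cells was 0 CPM, and that of Npnt 65.1 CPM. In the other 3 batches the 4 genes were also below the other mesenchymal cells, with values of -0.34, -0.83 and -1.35 for Car13 and of -0.26, -0.35 and -0.23 for Npnt in batches 5, 2 and 6. Where the mean was 0 CPM, the size of the value depends on the 1 CPM added to both means. Whether the depth of these cells has a part in the values was not tested.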

How the results depend on the processing

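No alternative reversed a value. Of the single-gene differences between Col8a1/Lum-low and other mesenchymal cells recomputed under the alternatives, 413 moved by less than the spread between batches and 35 by more, and of those between ages 143 and 49. The sizes depended most on the scale, as means of log2 values moved 28 by more than that spread and 16 by less. On that scale Wif1 was at 5.01 instead of 1.85, and Kit between the ages at 2.55 instead of 7.18. The counts of genes moved too. Given as higher and lower, the main counts were 44 and 82 against all other mesenchymal cells, 54 and 103 against Lum-high and 122 and 120 against Col8a1-positive cells. Means of log2 values gave 168, 206 and 250 genes as lower. Without a detection limit the counts were 94 and 649, 120 and 433, and 212 and 314, with 60 listed genes lower, 4104 genes higher at P4 and 340 at P6. Equal weight per batch gave 72 and 256, 90 and 270, and 253 lower than Col8a1-positive. Thinned cells gave 76 higher than all others, 196 higher than Col8a1-positive and 365 higher at P6. P6 cells alone gave 154 and 322, 189 and 360, and 218 and 353. P4 cells alone gave 220 and 288, 255 and 295, and, against 8 Col8a1-positive cells, 1001 and 1434, with 23 listed genes higher. With both genes at 0 reads the counts were 167 and 165, 166 and 175, and 334 and 232, with 32 listed genes higher and 444 higher at P6. With limits of 10 and 50 CPM they were 90, 91 and 211 higher, 18 listed genes higher and 330 higher at P6. With 4 of the 5 mesenchymal genes required, they were 79 higher than all others, 198 higher than Col8a1-positive and 368 higher at P6. Settings with a single age or fewer batches ask for a shared direction in fewer batches, and for the others the cause was not tested.

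Leaving out 1 batch at a time gave 76 to 154 higher and 107 to 322 lower than all others, 81 to 189 and 112 to 360 against Lum-high, 200 to 230 and 177 to 353 against Col8a1-positive cells, 11 to 18 listed genes higher and 36 to 42 lower, 618 to 1051 genes higher at P4 and 332 to 489 higher at P6. The share at P6 ran from 14.3% to 21.3%. No paired analysis was possible because the labels give no replicate numbers and each age is 1 sample; the batch number only puts both groups of cells side by side, as in the values within batches and with equal weight per batch. Depth limits what can be said of weak genes in the 5 cells of batch 4, and P4 rests on 1 batch.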

Other observations

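Further signalling lists were described by the same counts against all other mesenchymal cells, where 1.09% of tested genes were counted as higher and 2.03% as lower. Of 9 tested genes of the BMP list none was counted, and 8 were above the other cells in the pooled means (median log2 0.49, against 0.05 for all genes). Bambi, a decoy receptor of BMP and TGF-beta, averaged 239 against 126 CPM but was below the other cells in batch 6. Of 3 tested hedgehog genes, Boc, a co-receptor, was counted as lower (46.3 against 119 CPM). Of 5 tested FGF genes none was counted. Igf1r, the receptor for the insulin-like growth factors, averaged 159 against 42.0 CPM but was below in batch 2, whereas its ligands Igf1 and Igf2 were below in all 4 batches.

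Of 15 tested genes linked to deafness in the inner ear mesenchyme, Eya1 alone was counted as lower, and 10 were above the other cells in the pooled means. In every batch, 6 were above (Col2a1, Col9a1, Col9a2, Col9a3, Col11a2 and Gjb2), against 5.33% of all tested genes. The collagens among them are those described above, so they add no separate result. Within P4 alone, none of the 14 genes of the list tested there was counted as lower and 1 as higher. Of 14 tested genes of fibrocyte ion transport and gap junctions, Gja1 and Car13 were counted as lower. The median was -0.73, against 0.05 for all genes. It was smaller in size within each age, at -0.34 within P4 (against -0.04) and -0.41 within P6 (against 0.01). Slc12a2, the sodium, potassium and chloride cotransporter of fibrocytes, averaged 136 against 56.4 CPM but was below in batch 6. Of 6 tested genes of retinoid handling, Rbp4 was counted as lower (212 against 791 CPM).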
